A study of Mus musculus with 14 samples.

Results

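The genes described here are 31 mouse genes of cholesterol and fatty acid synthesis, taken by symbol from a named list in which Msmo1 also appears under its older symbol Sc4mol. All 31 were found in both expression tables, among 13406 genes in the first table and 14563 in the other. By role, 6 act in the mevalonate steps, 11 in the sterol steps from squalene onward, 5 regulate the pathway and 9 make, elongate or desaturate fatty acids.

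RNA was sequenced from primary acute myeloid leukaemias of C57/BL6 mice. Every library came from cells with a Tet-Off vector for the fusion oncogene MLL-AF9 with a dsRED reporter, and with another vector for NRASG12D and the Tet-Off activator. The leukaemias grew in irradiated recipients of transduced foetal liver cells and were collected from the spleen. In the first table, cells kept in vitro with doxycycline for 4 days, which switches MLL-AF9 off (DOX, n = 4), were compared with untreated cells (UT, n = 4). In the other, GFP-positive cells sorted 2 days after retroviral transduction with Id2-GFP (n = 3) were compared with cells given a control-GFP vector and sorted alike (n = 3). Id2 is an inhibitor of E-protein transcription factors. The titles pair DOX and UT libraries under the labels TRIMA2-M1B1, TRIMA2-M3B1, TRIMA2-M4B1 and TRIMA1-M4B1, called pairs 1 to 4 here, and number the transduced libraries 1 to 3 in each group. The titles of DOX replicates 1, 2 and 4 end in an R that DOX replicate 3 and the UT libraries lack. What the R marks is not said in the titles.

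Cholesterol is built from acetyl-CoA through mevalonate, isoprenoid diphosphates, squalene and lanosterol, and fatty acids are built from the same precursor through malonyl-CoA. Transcription of both sets of enzymes is driven by SREBP factors, the products of Srebf1 and Srebf2. When membrane sterol is low, the escort protein Scap carries SREBP from the endoplasmic reticulum to the Golgi, where it is cleaved and released, and Insig proteins hold Scap back when sterol is plentiful. SREBP works with partner factors, among them NF-Y, which binds the CCAAT box.

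The libraries held 17922644 to 25959766 reads in the first table and 14051150 to 14948487 in the other, and the 31 genes had 324 to 18455 reads per library in the first and 113 to 11365 in the second. Levels are CPM (reads scaled by library size) as the authors scaled them, and changes are differences of their log2 values. Mll1, the table's row for the MLL gene, averaged 128 ± 13.2 CPM in DOX and 3901 ± 1931 CPM in UT (SD, n = 4 each), and Id2 was 5.18 ± 0.31 (SE) higher on the log2 scale in Id2-GFP libraries than in controls (limma, adjusted p = 0.00264). All 7 macrophage markers in the first table rose in DOX, and their summed level was 24095 to 35616 CPM in DOX and 2694 to 5525 CPM in UT, against 959 to 1689 CPM in Id2-GFP libraries and 1155 to 2053 CPM in controls for the 6 markers in the other table. The 6 markers of myeloid leukaemia cells were all in both tables, and in DOX Ptprc and Itgam rose while Kit, Cd34 and Elane fell. Mpo had 44.3, 50.2, 299 and 109 CPM in DOX replicates 1 to 4, against 156, 143, 538 and 169 CPM in UT. It was lower in all 4 pairs and did not pass (limma, log2 change -1.20 ± 0.63, adjusted p = 0.119). With the pair as a replicate block it passed (adjusted p = 0.000375). The T-cell and B-cell markers, 3 of each, were in neither table, and of 3 erythroid markers only Hba-a1 was in the second, at 0.52 to 1.01 CPM in Id2-GFP libraries and 0.10 to 1.53 CPM in controls. Of 4 stromal and endothelial markers, Pdgfrb and Pecam1 were present, at a summed 76.5 to 111 CPM in DOX and 293 to 320 CPM in UT, and at 216 to 227 CPM in Id2-GFP libraries and 277 to 382 CPM in controls. In bulk RNA, fewer cells of a type and less RNA per cell cannot be told apart, and the part of these other genes' shifts in the changes below was not tested.

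In each table some libraries stood apart for these genes. DOX replicate 4, the TRIMA1-M4B1 library, was the lowest of the 4 DOX libraries for 28 of the 31 genes, against 28.2% of all genes. Control replicate 3 was the highest of the 3 control libraries for 23 of the 31 genes, against 47.5% of all genes. Among the 17 mevalonate and sterol genes it was the highest for 16. DOX replicate 2 was the highest of its group for 19 of the 31 genes, against 29.4% of all genes. Id2-GFP replicate 2 was the lowest of its group for 22 of the 31, against 37.1%. Results that rest on DOX replicate 4 or control replicate 3 are given with and without their pairs. No other pair was left out whole.

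Promoters of 25 of the 31 genes were found among the RefSeq promoter sequences (GRCm38.p6, 250 bases before to 50 after the start), 33 promoters in all. The pentamer CCAAT, searched on both strands, was in a promoter of 21 of these 25 genes (84.0%) and of 43.4% of the 9009 genes of the first table with an entry. The E-box CACGTG, which reads the same on both strands, was in 6 of 25 (24.0%) and in 11.9% of those genes. A strict sterol element, TCACNCCAC on either strand, was in 1 of 25 (4.0%) and in 1.39%, and the E-protein box CAGCTG, the same on both strands, in 4 of 25 (16%) and in 17.7%. Each promoter is shown 5′ to 3′ in the direction of its gene, with CCAAT or its complement ATTGG and any sterol element in capitals. In Fasn 2 of the 3 CCAAT boxes overlap, on opposite strands. Hmgcs1, the enzyme that forms HMG-CoA (chr13:119690101-119690400, plus strand), is shown as the gene with both a sterol element and CCAAT boxes, 4 of them. Fasn (chr11:120824498-120824797, minus strand), fatty acid synthase, had the largest fall among the 31 genes in DOX, and Elovl5 (chr9:77917115-77917414, plus strand), an elongase of polyunsaturated fatty acids, the largest rise. Msmo1 (chr8:64733529-64733828, minus strand), a sterol demethylation enzyme, rose and holds 3 CCAAT boxes.
Hmgcs1: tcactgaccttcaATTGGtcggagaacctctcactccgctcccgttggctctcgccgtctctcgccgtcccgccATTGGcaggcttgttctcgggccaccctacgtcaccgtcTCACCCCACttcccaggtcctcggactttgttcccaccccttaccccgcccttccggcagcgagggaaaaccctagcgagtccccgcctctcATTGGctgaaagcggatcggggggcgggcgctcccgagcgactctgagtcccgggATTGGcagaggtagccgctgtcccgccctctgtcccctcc
Fasn: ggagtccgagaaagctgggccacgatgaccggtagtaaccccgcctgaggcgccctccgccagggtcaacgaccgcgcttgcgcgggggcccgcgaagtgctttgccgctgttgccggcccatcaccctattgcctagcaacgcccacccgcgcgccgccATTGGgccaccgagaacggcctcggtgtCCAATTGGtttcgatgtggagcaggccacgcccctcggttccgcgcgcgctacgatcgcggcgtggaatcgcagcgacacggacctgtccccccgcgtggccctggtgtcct
Elovl5: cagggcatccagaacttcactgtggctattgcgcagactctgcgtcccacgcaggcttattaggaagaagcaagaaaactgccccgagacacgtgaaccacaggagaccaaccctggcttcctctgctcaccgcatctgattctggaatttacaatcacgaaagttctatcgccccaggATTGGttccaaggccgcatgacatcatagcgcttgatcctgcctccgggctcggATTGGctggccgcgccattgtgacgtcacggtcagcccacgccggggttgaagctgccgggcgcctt
Msmo1: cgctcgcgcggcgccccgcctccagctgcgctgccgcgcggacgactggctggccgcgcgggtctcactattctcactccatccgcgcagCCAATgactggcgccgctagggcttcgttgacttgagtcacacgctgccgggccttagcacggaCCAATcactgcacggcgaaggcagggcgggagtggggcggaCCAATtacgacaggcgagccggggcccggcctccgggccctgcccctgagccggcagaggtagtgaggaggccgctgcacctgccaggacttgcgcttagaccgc
All 5 genes that rose in DOX and have a promoter entry hold CCAAT, as do 5 of the 9 that fell and 11 of the 11 that did not pass the test. The 4 without it, Acaca, Elovl6, Fads2 and Scap, all fell. This was seen after the changes were known, and a match is a description of the letters. The only Acaca entry, chr11:84195188-84195487, lies inside the gene, which starts at chr11:84129672, so the sequence at that start was not searched. A gene with several entries was counted if any of them held CCAAT. In Dhcr7, which fell, and in Insig2, Pmvk and Srebf1 not all entries did.

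After doxycycline the synthesis genes split in direction. Of the 31 genes, 6 rose and 10 fell (51.6%), against 65.1% of all genes tested (limma, Benjamini-Hochberg adjusted p under 0.05 over all genes), of which 31.3% rose and 33.8% fell. The 6 that rose were Mvd, Msmo1, Sc5d, Insig2, Elovl5 and Fads1, and the 10 that fell were Idi1, Fdps, Cyp51, Tm7sf2, Dhcr7, Scap, Acaca, Fasn, Elovl6 and Fads2. None of the 16 reached a 2-fold change, against 15.3% of all genes that were called with one, and the median size of the log2 change was 0.30 over the 31 genes and 0.37 over all genes. The log2 changes ran from -0.71 for Fasn to 0.62 for Elovl5 with a median of -0.07, beside a median of -0.03 over all genes. DOX and UT libraries did not overlap for 13 genes (41.9%), against 60.0% of all genes, and 14 genes had the same direction in all 4 pairs (45.2%), against 74.7% of all genes. Each of these shares was below that over all genes, which is a description with no test of the difference. Gene positions below are from GENCODE M21 on GRCm38, the assembly that mm10 denotes.

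**Figure D1:**
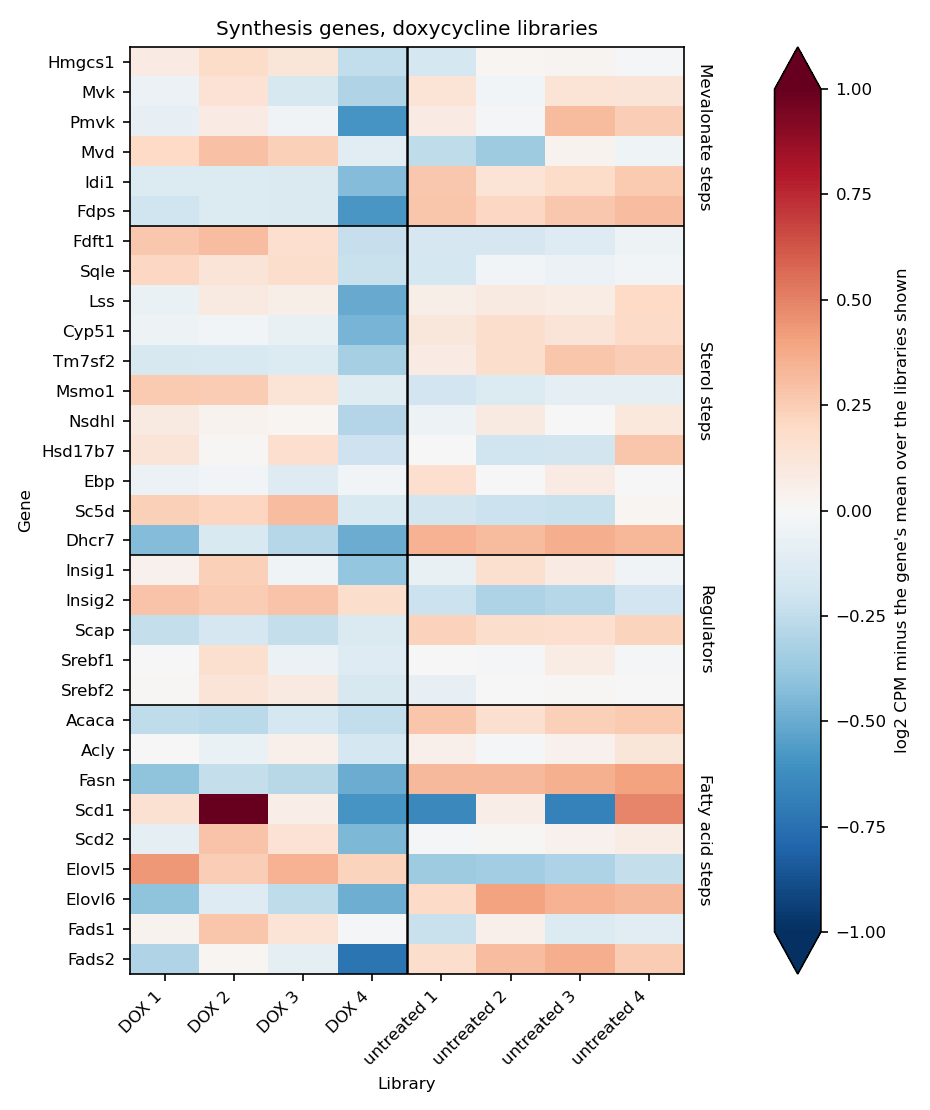
Level of each synthesis gene (rows, grouped by role) in the 4 DOX and 4 UT libraries (columns), as log2 CPM minus the mean of that gene over the 8 libraries, red for higher and blue for lower. The DOX 4 column is the lowest of the DOX columns for 28 of the 31 genes, and Scd1 varies most between libraries.

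In the mevalonate steps 1 of 6 genes rose and 2 fell, with a median log2 change of -0.25. Fdps (chr3:89093588-89101959, minus strand) makes farnesyl diphosphate, at the branch between sterols and protein prenylation. It had 266, 278, 277 and 204 CPM in DOX replicates 1 to 4, against 371, 352, 369 and 379 CPM in the UT replicates. Every DOX library was below every UT library, and the log2 change was -0.54 ± 0.09 (SE, n = 4 each; adjusted p = 0.000759). Idi1, the isomerase that supplies Fdps, had 151, 151, 151 and 123 CPM in DOX, against 201, 183, 189 and 199 CPM in UT. Again the groups did not overlap, and the log2 change was -0.43 ± 0.07, with an adjusted p of 0.000573. Mvd, which makes isopentenyl diphosphate just before Idi1, went the other way, with 80.8, 86.0, 83.0 and 65.0 CPM in DOX and 59.2, 55.1, 72.0 and 68.4 CPM in UT. It was higher in DOX in pairs 1 to 3 and lower in pair 4, for a log2 change of 0.31 ± 0.11 (adjusted p = 0.0312). Of the entry enzymes, Hmgcs1 had 163, 174, 167 and 129 CPM in DOX and 136, 155, 156 and 152 CPM in UT, and the kinases Mvk and Pmvk had log2 changes of -0.19 ± 0.09 and -0.31 ± 0.14, none of them past the threshold.

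In the sterol steps 2 of 11 genes rose, 3 fell and 6 did not pass, with a median log2 change of -0.07. Dhcr7 (chr7:143823145-143848410, plus strand), the reductase that forms cholesterol in the last step, had 52.1, 63.2, 57.6 and 49.7 CPM in DOX, against 89.4, 87.5, 90.5 and 88.5 CPM in UT. The groups were far apart relative to their spread, and the log2 change was -0.68 ± 0.07 (adjusted p = 2.59e-05), the largest of the 17 mevalonate and sterol genes. Tm7sf2, a sterol reductase acting after lanosterol demethylation, had 19.0, 19.2, 19.3 and 16.9 CPM in DOX and 22.5, 24.1, 25.8 and 25.2 CPM in UT, a log2 change of -0.39 ± 0.07 (adjusted p = 0.000736). Cyp51, the lanosterol demethylase, had 152, 154, 150 and 114 CPM in DOX and 170, 178, 172 and 180 CPM in UT, a log2 change of -0.31 ± 0.09 (adjusted p = 0.0141). Neither gene overlapped between groups, and for both the lowest library was DOX replicate 4.

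Msmo1 and Sc5d, a sterol desaturase that acts just ahead of Dhcr7, rose. Msmo1 had 161, 160, 148 and 124 CPM in DOX and 118, 122, 126 and 126 CPM in UT (log2 change 0.26 ± 0.08, adjusted p = 0.0169). Sc5d had 127, 124, 133 and 96.5 CPM in DOX and 94.2, 92.3, 91.7 and 109 CPM in UT (log2 change 0.30 ± 0.10, adjusted p = 0.0232). In both, DOX replicate 4 lay among the UT libraries while the other 3 DOX libraries lay above all UT libraries. The squalene synthase Fdft1 had 112, 114, 104 and 78.9 CPM in DOX and 82.4, 82.1, 84.3 and 89.0 CPM in UT. Here DOX replicate 4 was below all UT libraries and the other 3 DOX libraries above them. Fdft1 missed the threshold (log2 change 0.26 ± 0.11, adjusted p = 0.0551) and passed with the pair as a replicate block (adjusted p = 0.0455). The squalene epoxidase Sqle, the cyclase Lss and the later enzymes Nsdhl, Hsd17b7 and Ebp did not pass, with log2 changes between -0.21 and 0.14.

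**Figure D2:**
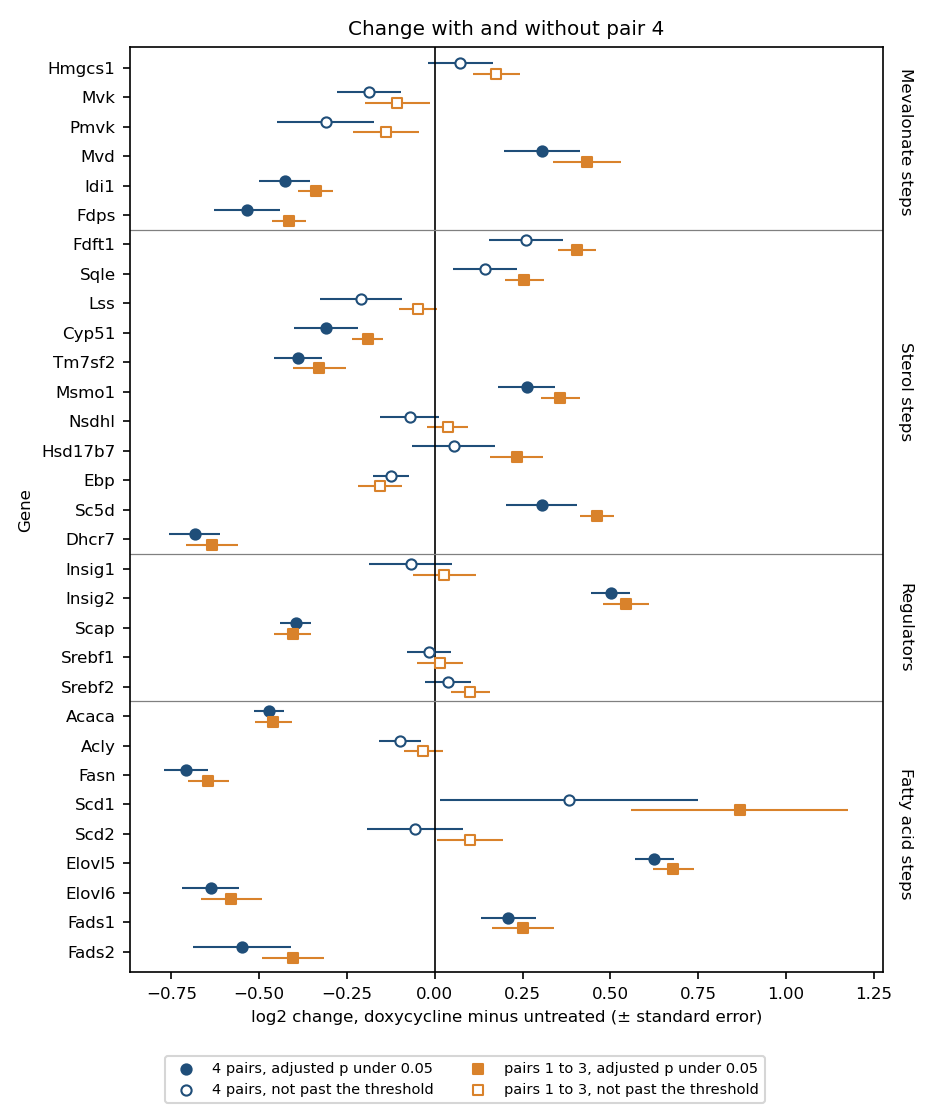
Log2 change of each synthesis gene after doxycycline (DOX minus UT, ± standard error), from all 4 pairs (circles) and from pairs 1 to 3 (squares), filled where the adjusted p is under 0.05. Without pair 4 the count that rose is 10 instead of 6, and the squares lie to the right of the circles for 16 of the 17 mevalonate and sterol genes.

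Among the 5 regulators 1 rose and 1 fell. Insig2 (chr1:121304353-121332589, minus strand) had 25.9, 25.3, 25.8 and 24.0 CPM in DOX, against 18.2, 17.1, 17.4 and 18.6 CPM in UT. The groups did not overlap, and the log2 change was 0.50 ± 0.06, with an adjusted p of 3.64e-05. Scap (chr9:110333288-110384950, plus strand) had 41.9, 44.0, 41.9 and 44.6 CPM in DOX, against 58.0, 55.7, 55.4 and 57.8 CPM in UT, also with no overlap, and its log2 change was -0.40 ± 0.04 (adjusted p = 3.29e-05). Both also passed without pair 4 (adjusted p = 0.000246 for Insig2 and 0.000402 for Scap).

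The genes of the SREBP factors themselves did not pass with the authors' scaling. Srebf1 had 181, 203, 175 and 166 CPM in DOX and 181, 180, 192 and 179 CPM in UT (log2 change -0.02 ± 0.06, adjusted p = 0.823). Srebf2 had 385, 417, 405 and 341 CPM in DOX and 360, 382, 383 and 380 CPM in UT (log2 change 0.04 ± 0.07, adjusted p = 0.637). Insig1, which unlike Insig2 is itself a strong SREBP target, had 158, 181, 150 and 117 CPM in DOX and 146, 172, 162 and 150 CPM in UT (log2 change -0.07 ± 0.12, adjusted p = 0.632). For all 3 the DOX values lay on both sides of the UT values. With reads scaled to plain library totals, which lowers every change by the same amount, Srebf1 and Srebf2 were called as fallen. Their log2 changes were then -0.26 and -0.20 (limma, adjusted p = 0.0114 and 0.0423). RNA levels do not show how much SREBP was cleaved.

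In the fatty acid steps 2 of 9 genes rose and 4 fell, and among these were the largest fall and the largest rise of the 31 genes. Fasn (chr11:120805846-120824547, minus strand) had 389, 435, 423 and 365 CPM in DOX, against 644, 644, 658 and 679 CPM in UT. Every DOX library was below every UT library by a wide margin, and the log2 change was -0.71 ± 0.06 (adjusted p = 8.18e-06). Elovl6, which elongates saturated and monounsaturated fatty acids, had 57.6, 69.6, 64.1 and 54.3 CPM in DOX and 87.1, 101, 97.3 and 95.6 CPM in UT, a log2 change of -0.64 ± 0.08 (adjusted p = 9.08e-05). Acaca, which makes malonyl-CoA for Fasn, ranged from 124 to 132 CPM in DOX and from 167 to 181 CPM in UT, a log2 change of -0.47 ± 0.04 (adjusted p = 9.93e-06). Acly, which makes cytosolic acetyl-CoA from citrate, averaged 491 ± 32.6 CPM in DOX and 526 ± 21.6 CPM in UT (SD, n = 4 each) and did not pass (adjusted p = 0.167).

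The enzymes of polyunsaturated fatty acids divided. Elovl5 (chr9:77917364-77984519, plus strand) had 176, 155, 167 and 153 CPM in DOX, against 102, 103, 106 and 111 CPM in UT, with no overlap and a log2 change of 0.62 ± 0.06 (adjusted p = 8.56e-06). Fads2 (chr19:10062765-10101746, minus strand), the desaturase of the first step, had 106, 132, 122 and 78.7 CPM in DOX and 147, 161, 167 and 156 CPM in UT. It was lower in all 4 pairs, without overlap, with a log2 change of -0.55 ± 0.14 (adjusted p = 0.00664). Fads1, the desaturase of the later step, which lies near Fads2 (chr19:10182888-10196877, plus strand), had 120, 141, 128 and 115 CPM in DOX and 99.7, 121, 106 and 108 CPM in UT. It was higher in DOX in all 4 pairs although the groups overlapped, with a log2 change of 0.21 ± 0.08 (adjusted p = 0.0372).

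The stearoyl-CoA desaturases differed in level and spread. Scd2 was the most abundant of the 31 genes per kilobase of exon, at 136 CPM per kilobase in DOX and 139 in UT, and did not pass (log2 change -0.06 ± 0.14, adjusted p = 0.737). Its paralog Scd1 had 29.9, 59.0, 28.2 and 17.8 CPM in DOX, against 17.2, 28.2, 16.9 and 37.6 CPM in UT. It was higher in DOX in pairs 1 to 3 and lower in pair 4, and its log2 change of 0.38 ± 0.37 did not pass (adjusted p = 0.384). In DOX the lowest level per kilobase was that of Tm7sf2, at 4.23 CPM per kilobase, and in UT that of Scd1, at 5.11. Scd1 and Scd2 share sequence, and how the counting treated reads common to both is not given in the sources used here.

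**Figure D3:**
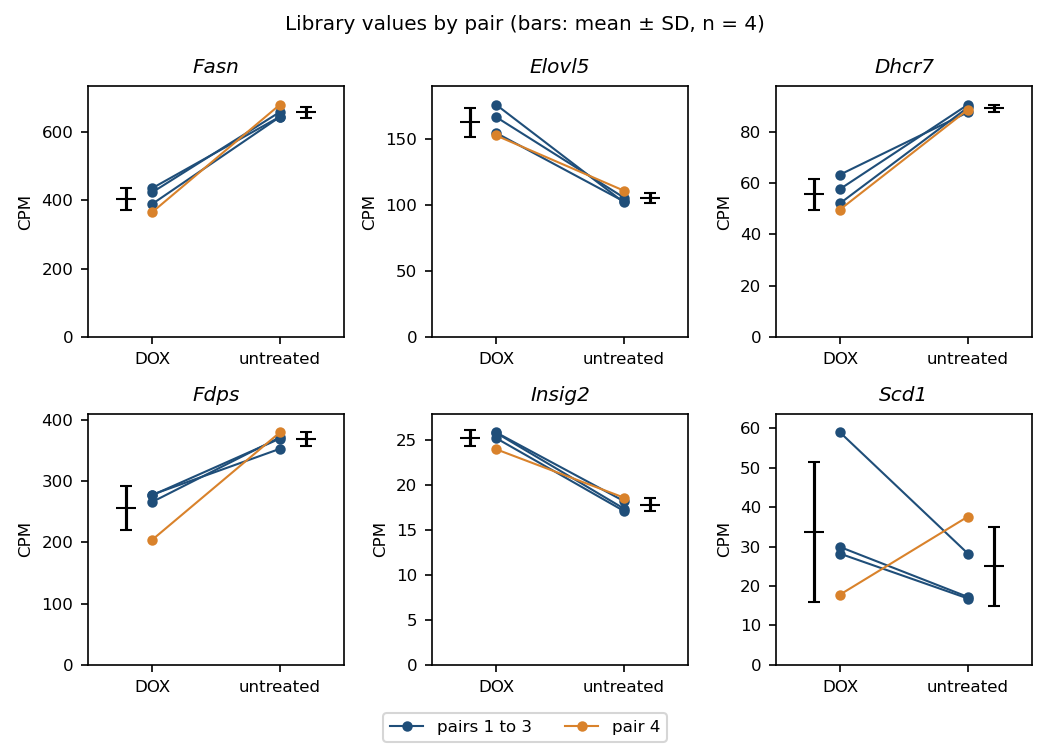
CPM of 6 synthesis genes in each DOX library (left) and its UT partner (right), joined by pair, with pair 4 in orange and bars for the mean ± SD of each group (n = 4). The lines of Fasn, Dhcr7 and Fdps lie lower in DOX and those of Elovl5 and Insig2 higher in all 4 pairs, while Scd1 is higher in DOX in pairs 1 to 3 and lower in pair 4.

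In pair 4 these genes stood apart from the other pairs. Of the 17 mevalonate and sterol genes, 8, 10 and 8 were higher in DOX in pairs 1 to 3 and 0 in pair 4, where 47.3% of all genes were higher. Over all 31 genes the counts were 15, 18, 15 and 3. The median log2 difference of the mevalonate and sterol genes was -0.13, 0.10, -0.02 and -0.43 in pairs 1 to 4. The summed macrophage marker level of DOX replicate 4, 31558 CPM, was inside the range of the other DOX libraries. In its partner, UT replicate 4, the sum was 5525 CPM, against 3144, 2951 and 2694 CPM in UT replicates 1 to 3. The part of that difference in the values of pair 4 was not tested. By exon length, DOX replicate 4 deviated from the other DOX libraries by -0.05, 0.00 and 0.03 (median log2) for the short, middle and long class of genes. The test of the change in pair 4 against that in pairs 1 to 3, chosen after seeing the data, was passed by 1 of the 31 genes and by 0.224% of all genes. That gene was Scd1, with a difference of -1.95 ± 0.16 (limma, adjusted p = 0.000934). The difference was below 0 for 29 of the 31 genes, against 54.4% of all genes, with an unadjusted p under 0.05 for 20 of them and for 1009 of all 13406 genes, and the smallest adjusted p of the 17 mevalonate and sterol genes was 0.0627. Pair 4 is also the pair labelled TRIMA1, so the label and the pair cannot be told apart.

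Without both libraries of pair 4, 10 genes rose and 10 fell, and the share called over all genes was 60.0%. The 4 added genes were Fdft1 (log2 change 0.40 ± 0.05, adjusted p = 0.00044), Sqle (0.26 ± 0.06, adjusted p = 0.00511), Hsd17b7 (0.23 ± 0.07, adjusted p = 0.0279) and Scd1 (0.87 ± 0.31, adjusted p = 0.0416). The median log2 change of the 31 genes was then 0.01.

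Scaling reads to plain library totals lowered every log2 change by the same 0.24 and moved the median of all genes to -0.27, so that rises became smaller and falls larger by construction. Insig2 and Elovl5 rose under every scaling tried, at 0.26 and 0.38 on the log2 scale with library totals. With those totals Mvd, Msmo1 and Sc5d had changes of 0.07, 0.02 and 0.06 with adjusted p of 0.631, 0.842 and 0.617, Fads1 changed sign to -0.03 (adjusted p = 0.781), 2 genes rose and 18 fell, beside 71.7% of all genes called in either direction. With quantile normalization 2 rose and 14 fell, beside 66.5% of all genes. The 10 falls were called under every scaling tried.

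Of the other lipid genes, from lists drawn up around these 31, those of efflux, uptake and storage had larger changes as a list. Their median size of the log2 change was 1.15. It was 0.24 for further synthesis and supply and 0.13 for oxidation, beside 0.30 for the 31 genes and 0.37 over all genes. Of 19 measured genes of further synthesis and supply, 7 rose and 6 fell (68.4%), near the 65.1% of all genes called. Their median log2 change was -0.07. Mbtps1, 1 of the proteases that release SREBP, fell by 0.25 ± 0.04 and Mbtps2, the other, rose by 0.55 ± 0.06 on the log2 scale. Acat2, the thiolase that opens the mevalonate route, fell by 0.79 ± 0.13, and Tecr, which completes long-chain elongation, by 0.15 ± 0.04 on the log2 scale. Mid1ip1, an activator of acetyl-CoA carboxylase, rose by 0.83 ± 0.07, Acsl4, which activates arachidonic acid, by 0.80 ± 0.07, and Elovl7, another elongase, by 1.21 ± 0.15, again in log2.

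Most genes of cholesterol efflux, uptake and storage rose. Of the 15 measured genes 12 rose and 0 fell in DOX by limma, beside 31.3% and 33.8% of all genes, with a median log2 change of 1.15. With the replicate block 13 rose and 1 fell, beside 69.6% of all genes called in either direction. The 1 that fell was Cd36, at 22 to 122 reads per library (log2 change -0.70, limma, adjusted p = 0.0392 with the block). At an unadjusted p under 0.05, 13 of 15 passed in either direction, beside 9134 of all 13406 genes. Npc2, a lysosomal cholesterol carrier, had 697, 729, 640 and 663 CPM in DOX and 294, 299, 298 and 337 CPM in UT (log2 change 1.15 ± 0.06, adjusted p = 6.59e-07). Npc1, its membrane partner, rose by 1.70 ± 0.10, Lipa, the lysosomal cholesteryl ester hydrolase, by 1.73 ± 0.11, and Soat1, which esterifies cholesterol for storage, by 1.30 ± 0.08 on the log2 scale. The 7 macrophage markers rose in the same libraries with a median log2 change of 2.32. Of 14 fatty acid oxidation genes, 1 rose and 4 fell (35.7%, against 65.1% of all genes), with a median log2 change of 0.00. The auxiliary enzymes Eci1 and Decr1 fell by 0.44 ± 0.07 and 0.47 ± 0.10, the dehydrogenases Acadl and Acads by 0.18 ± 0.05 and 0.21 ± 0.06, all on the log2 scale.

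**Figure D4:**
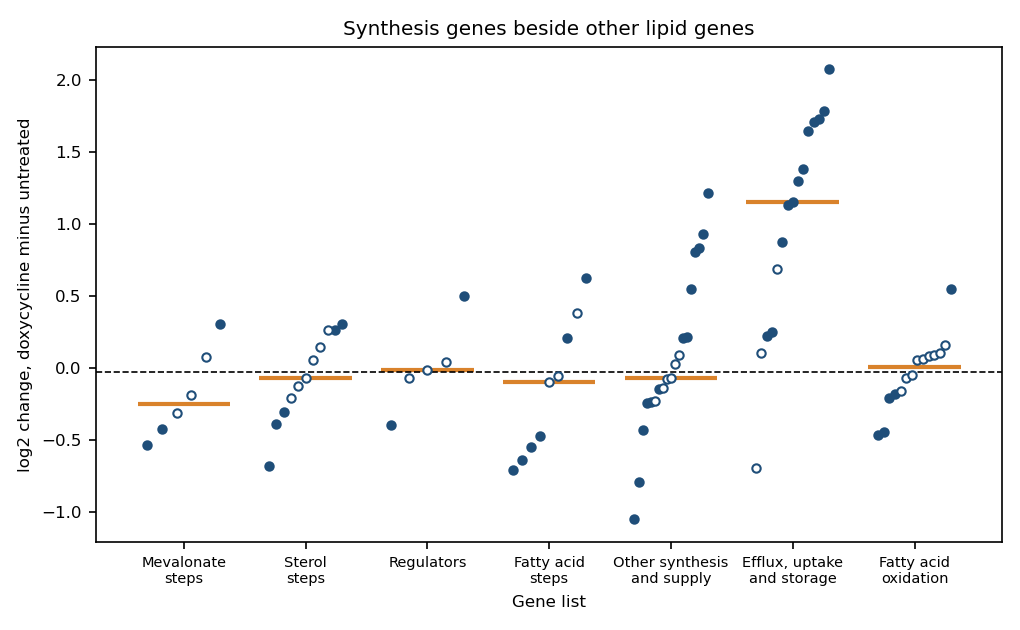
Log2 change of each gene after doxycycline (DOX minus UT, points in rising order within a list), filled where the adjusted p is under 0.05, with the list's median as a bar and the median of all genes, -0.03, as a dashed line. The 4 groups of synthesis genes lie between -0.71 and 0.62, and the list of efflux, uptake and storage has a median of 1.15.

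With Id2 overexpression none of the 31 genes passed the test, and control replicate 3 was the highest library for most of the mevalonate and sterol genes. The test called 2 of 14563 genes (0.0137%), and 357 genes (2.45%) had an unadjusted p under 0.05, among them 1 of the 31. With the pair number as a replicate block 35 genes passed (0.240%) and 0 of the 31. The log2 changes ran from -0.77 to 0.41 with a median of -0.19, beside -0.03 over all genes. Of the 31 genes, 25 were lower in Id2-GFP libraries, beside 8051 of all 14563 genes. By pair, 26, 4 and 8 of the 31 were higher with Id2 in pairs 1 to 3, against 52.3%, 49.3% and 45.5% of all genes. In all 3 pairs the direction was the same for 4 genes (12.9%), against 27.4% of all genes, and all 4 were lower in Id2-GFP libraries (Tm7sf2, Elovl5, Fads1 and Fads2). Standard errors of the log2 changes had a median of 0.25 (0.15 to 0.39) in this table and of 0.08 (0.04 to 0.37) in the first, so changes as small as most of those seen after doxycycline were not detectable here. The stromal and endothelial markers Pdgfrb and Pecam1 were lower in Id2-GFP libraries in 3 of 3 pairs without overlap (limma, unadjusted p = 0.00171 and 0.0326, adjusted p = 0.998 for both). Of the 6 leukaemia markers, 4 had higher and 2 lower means with Id2. Mpo had 57.6, 11.4 and 72.1 CPM in Id2-GFP libraries and 138, 66.7 and 190 CPM in controls, lower in 3 of 3 pairs. Its log2 change was -1.74 ± 0.71 (limma, adjusted p = 0.998), and it passed with the replicate block (adjusted p = 0.0359). The part of these markers in the values below was not tested.

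All 17 mevalonate and sterol genes had lower means in Id2-GFP libraries, with a median log2 change of -0.26. Without both libraries numbered 3, 11 of the 17 were lower and 6 higher (Mvk, Pmvk, Mvd, Fdps, Fdft1 and Lss), with a median of -0.09. Fdps had 256, 239 and 228 CPM in Id2-GFP libraries 1 to 3, against 226, 240 and 545 CPM in controls 1 to 3. Pmvk had 28.9, 34.9 and 31.0 CPM in Id2-GFP libraries and 28.4, 31.8 and 83.5 CPM in controls. In both genes control 3 lay far above the other 5 libraries, which lay together. Control 3 was the highest of all 6 libraries for 16 of the 17 genes, against 37.7% of all genes, and the exception was Hsd17b7, at 37.9, 19.5 and 18.3 CPM in Id2-GFP libraries and 28.0, 32.9 and 19.2 CPM in controls.

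Control 3 also differed over the whole table. Its median log2 deviation from the other controls was 0.54 for the short class of genes by exon length, 0.09 for the middle and -0.34 for the long class. The synthesis genes in those classes, 3, 17 and 11 of them, deviated by 1.24, 0.38 and 0.30. The part of transcript length in its high values was not tested. By pair, the mevalonate and sterol genes higher in Id2-GFP libraries were 15, 4 and 0 of 17 in pairs 1 to 3. Without both libraries numbered 3 the median log2 change of the 31 genes was -0.10, and without control 3 alone it was -0.05. Id2-GFP replicate 2 was the lowest of its group for 22 of the 31 genes, against 37.1% of all genes.

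**Figure D5:**
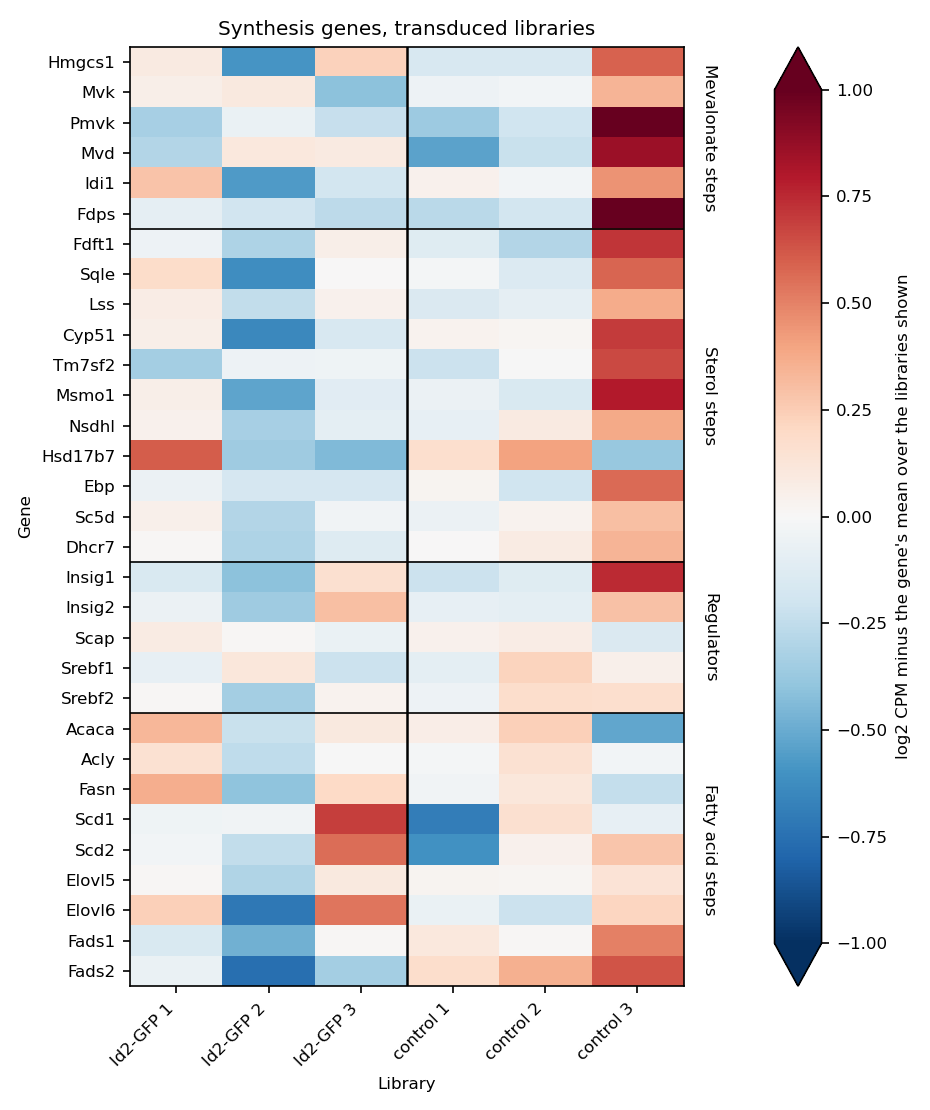
Level of each synthesis gene (rows, grouped by role) in the 3 Id2-GFP and 3 control libraries (columns), as log2 CPM minus the mean of that gene over the 6 libraries, red for higher and blue for lower. Control 3 is the highest column for 16 of the 17 mevalonate and sterol genes, and Id2-GFP 2 is the lowest of its group for 22 of the 31 genes.

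The regulators did not pass with Id2. Insig1 had 112, 93.1 and 138 CPM in Id2-GFP libraries and 107, 114 and 207 CPM in controls, and Insig2 had 17.1, 13.9 and 22.0 CPM in Id2-GFP libraries and 16.8, 16.6 and 21.8 CPM in controls. Scap had 58.2, 55.7 and 52.6 CPM in Id2-GFP libraries and 56.7, 58.0 and 49.9 CPM in controls. Srebf1 had 165, 189 and 151 CPM in Id2-GFP libraries and 164, 204 and 181 CPM in controls, and Srebf2 had 289, 227 and 293 CPM in Id2-GFP libraries and 276, 324 and 323 CPM in controls. The groups overlapped for all 5, and their log2 changes lay between -0.27 and 0.02.

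The desaturases Fads1 and Fads2 were the genes whose Id2-GFP and control libraries did not overlap, 2 of 31, against 6.95% of all genes. Fads2, named after its values were seen, had 77.0, 47.8 and 63.7 CPM in Id2-GFP libraries and 91.0, 103 and 125 CPM in controls. It was lower in 3 of 3 pairs, with a log2 change of -0.77 ± 0.22 and an unadjusted p of 0.0095 that did not survive adjustment over all genes (limma, adjusted p = 0.998, and 0.328 with the replicate block). Fads1 had 77.2, 61.4 and 86.4 CPM in Id2-GFP libraries and 92.2, 86.7 and 121 CPM in controls, also lower in 3 of 3 pairs (log2 change -0.41 ± 0.21, adjusted p = 0.998). Without both libraries numbered 3, Fads2 had a log2 change of -0.67, which passed with the replicate block (adjusted p = 0.000866) and is then based on 2 pairs.

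The remaining fatty acid genes lay on both sides of 0. Fasn had 615, 362 and 551 CPM in Id2-GFP libraries and 467, 517 and 406 CPM in controls, Elovl6 88.4, 45.7 and 109 CPM in Id2-GFP libraries and 71.6, 64.5 and 86.9 CPM in controls, and Elovl5 82.2, 66.2 and 87.0 CPM in Id2-GFP libraries and 82.9, 82.4 and 89.6 CPM in controls. Of the 10 genes that fell in DOX, 6 had lower and 4 had higher means with Id2, none past the threshold. All 6 genes that rose in DOX had lower means with Id2, as had 13 of the 15 not called in DOX and 25 of all 31. Without both libraries numbered 3, 5 of the 6 that rose in DOX were lower with Id2, beside 23 of all 31. The other, Mvd, was then higher with Id2 by 0.28 on the log2 scale. None of the other lipid genes passed with Id2, with median log2 changes of -0.02 for further synthesis and supply, 0.24 for efflux, uptake and storage and -0.09 for oxidation, and 2, 3 and 0 genes at an unadjusted p under 0.05.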

How the data were processed

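Gene expression was measured by RNA sequencing of total RNA (Illumina TruSeq V2 kit, per the labels' protocols). Per the submitters' processing notes, the build was mm10 and the tools were limma, HTSeq, TopHat2 and CASAVA 1.8.2, with no step given for each. The log2 values deposited by the authors, in a table for DOX and UT and a table for the transduced libraries, are log2 CPM of reads plus 0.5 over a scaled library size. Without the offset, 100% of the values were whole reads within 0.01 read. The tables were normalized apart, so each was tested alone.

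DOX was compared with UT and Id2-GFP with control-GFP using limma 3.58.1 in R 4.3.3 on the deposited log2 values (eBayes with a trend, two-sided, Benjamini-Hochberg adjustment over all genes, passed at an adjusted p under 0.05). The script was tested on simulated data. The offset understates changes of low genes. The fits had no block. Libraries of the same pair label or number deviated together from their group means, with correlations of 0.454 to 0.552 in the first table and 0.472 to 0.581 in the other. The pair labels and numbers in the titles thus pair the libraries, and the replicate block is the alternative. No label says that replicates came from separate animals, so the spread behind each p-value may be technical. Strand is not stated, so reads of genes that overlap on opposite strands cannot be separated.

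Alternatives were other scalings, offsets, filters and variance models, and leaving out each library. Leaving out both libraries of a pair, and the test of pair 4 against pairs 1 to 3, were chosen after seeing the data. The 31 genes and the other lists were chosen with earlier results of these data known. All 31 are named by role. Values of every library are given for up to 4 genes per role that passed without overlap, and for the regulators, and up to 4 genes per other list and direction are named by smallest p. Some genes of the other lists are not reported here. Genes described for pair 4, for control 3 or among those not past the threshold were chosen after their values were seen. Exon lengths are unions of GENCODE M21 exons, with the genes split into 3 classes of equal size. Tables and plots were made with Python 3.11.15 and matplotlib 3.10.9.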

Additional observations from a re-analysis of the deposited data

Results flagged for a closer look

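In groups of 4 libraries, a library far from the other 3 was looked for in each of the 31 genes, over 62 groups, and 7 were found, where chance gives about 1 in 20 groups. Of these, 4 were low values of DOX replicate 4. Idi1 had 123 CPM there and 151 in the other DOX libraries, Fdps had 204 CPM and 266 to 278 in the others, Cyp51 had 114 CPM and 150 to 154, and Tm7sf2 had 16.9 CPM and 19.0 to 19.3. The rest were untreated libraries. Mvk had 30.3 CPM in UT replicate 2 and 33.9 to 34.0 in the other UT libraries, Sc5d had 109 CPM in UT replicate 4 and 91.7 to 94.2 in the others, and Srebf2 had 360 CPM in UT replicate 1 and 380 to 383 in the others. The change of Scd1 differed between pair 4 and pairs 1 to 3 by -1.95 ± 0.16 on the log2 scale (SE; limma, adjusted p = 0.000934).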

How the results depend on the processing

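After doxycycline, the 10 falls and the rises of Insig2 and Elovl5 held under each of the 18 alternatives, while the other rises did not. The number of synthesis genes that rose was 2 with quantile normalization or library totals, 10 without both libraries of pair 4, 11 without them and with the replicate block, and 3 to 9 when single libraries were left out, against 6 as reported and 7 with the replicate block. With library totals 18 fell, the median log2 change was -0.31, 10 oxidation genes were called (5 as reported), and 5 genes changed sign, Fads1 to -0.030, Srebf2 to -0.20, Hmgcs1 to -0.17, Sqle to -0.10 and Hsd17b7 to -0.19. Library totals lower every change by the same amount, so rises had to weaken and falls to strengthen. Mvd, Sc5d or Fads1 lost their calls in 7 of the 8 fits without a single library, and Mvd and Fads1 without a variance trend. Without DOX replicate 2, DOX replicate 3 or UT replicate 1 only 3 genes rose. The replicate block changed no other call of the 31 genes than that of Fdft1. With Id2, the count of synthesis genes called was 0 under every alternative except the replicate block without both libraries numbered 3, where 1 was called (1 fell, Fads2), with 1 gene of further synthesis and supply and 2 of efflux, uptake and storage. Its median log2 change ran from -0.30 to -0.05 when single libraries were left out. Every Id2-GFP and control library held at least 14051150 reads, and standard errors in that table had a median of 0.25.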
